A study of Mus musculus with 3 samples.

Results

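A set of 10 chemokine genes of the mouse, Ccl6, Ccl7, Ccl8, Ccl9, Ccl12 and Ccl24 of the CC family and Cxcl1, Cxcl3, Cxcl14 and Ppbp of the CXC family, were followed across 3 RNA-Seq libraries of myeloid cells from mice with experimental autoimmune encephalomyelitis (EAE), a model of multiple sclerosis. They were chosen by name from the chemokine genes that the study's main comparison did not discuss, and make up 10 of 22238 genes listed in all 3 libraries. Bone marrow monocytes, called marrow monocytes here, were sorted as CD45+ CD11b+ Ly6Chi Ly6G- CD11c- cells, spinal cord monocytes, or cord monocytes, as CD45+ CD11b+ CD64+ Ly6Chi Ly6G- cells and spinal cord monocyte-derived antigen-presenting cells (APCs) as the Ly6Clow/- cells of the same CD64+ gate. Every population came from female wild-type C57BL/6J mice aged 10 to 12 weeks, which received myelin oligodendrocyte glycoprotein (MOG) peptide with complete Freund's adjuvant and 250 ng of pertussis toxin at 2 and 24 h, and cells were taken at days 14 to 15. Cells of 18 mice from 3 experiments (spinal cord) or 13 mice from 2 experiments (bone marrow) were pooled into 1 library per population. Spinal cords were digested with collagenase D and DNase I and passed over Percoll, whereas marrow was flushed and enriched with a monocyte kit. Tissue, handling and experiment therefore cannot be told apart between marrow and spinal cord. No library came from mice without EAE. One label of the APC library names the bone marrow while its title and tissue label name the spinal cord.

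Chemokines are small secreted proteins that guide leukocytes along gradients by acting on G protein-coupled receptors. CC chemokines of the monocyte chemoattractant group, which includes Ccl2, Ccl7, Ccl8 and Ccl12, draw monocytes, and CXC chemokines such as Cxcl1, Cxcl2 and Cxcl3 act on Cxcr2 and draw neutrophils. In EAE, chemokines made in the inflamed spinal cord recruit myeloid cells and T cells from the blood.

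The libraries held 33280643 estimated reads in marrow monocytes, 27283795 in cord monocytes and 28209589 in APCs. Levels are given as TPM, a share of transcripts corrected for transcript length and here rescaled to the same sum over the common genes in each library, with a 95% Wilson interval. Log2 fold changes (log2FC) were computed from reads and carry a 98% interval. A gene was called higher or lower if the whole interval exceeded a 2-fold change and the gene had more than 3 TPM in either library of the pair. With 1 library per population there was no replicate check and no test of the conditions, and all intervals cover counting error only.

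RNA of monocyte markers was present in every library. Of 8 monocyte markers, 8 were above 3 TPM in each, with Lyz2, the gene of lysozyme, the most abundant at 34515 TPM in marrow monocytes, 14312 TPM in cord monocytes and 10443 TPM in APCs. Between cord monocytes and APCs 3 of the 8 (Ly6c2, Plac8 and Ccr2) were called lower and 0 higher, beside 1.66% and 1.94% of all genes that passed. Ly6C was itself a marker of the sort. RNA of other cells was also present. The summed level of 13 neutrophil and granulocyte precursor markers was 8343, 1272 and 1373 TPM in the same order, with S100a8 the most abundant in each and none at 0 reads. Between cord monocytes and APCs S100a8 went from 678 to 498 TPM and Retnlg from 16.7 to 57.9 TPM, so this sum did not describe each marker. The summed level of 7 microglia markers was 12.9, 93.7 and 243 TPM, with P2ry12 the most abundant in each and Sall1 and Slc2a5 at 0 reads in the bone marrow. Markers of CNS-associated macrophages summed to 15.7, 36.8 and 51.1 TPM, led by Pf4 in the bone marrow and by Siglec1 in the spinal cord, with Lyve1 at 0 reads in marrow monocytes and APCs. Those of conventional dendritic cells summed to 40.8, 21.3 and 28.3 TPM, led by Flt3, Batf3 and Clec9a in that order of libraries, with none at 0 reads. Between the monocyte libraries Flt3 went from 37.8 to 3.65 TPM, whereas Batf3 went from 2.74 to 11.7 TPM and Clec9a from 0.108 to 4.38 TPM, so the sum did not describe each marker. Those of oligodendrocytes, led by Mbp in each, summed to 73.2, 54.7 and 53.1 TPM, with Mog at 0 reads in the bone marrow. In bulk RNA, fewer cells of a type and less RNA per cell cannot be told apart.

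Of the 10 genes, 2 (Ccl6 and Ccl9) were abundant in all 3 libraries. The next 6 (Ccl7, Ccl12, Ccl24, Cxcl1, Cxcl3 and Cxcl14) were below 3 TPM in marrow monocytes and above it in both spinal cord populations. Ppbp had the opposite order, with 21.6 TPM in the bone marrow and no more than 3 reads in either spinal cord library. Ccl8 stayed below 3 TPM in each library.

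**Figure D1:**
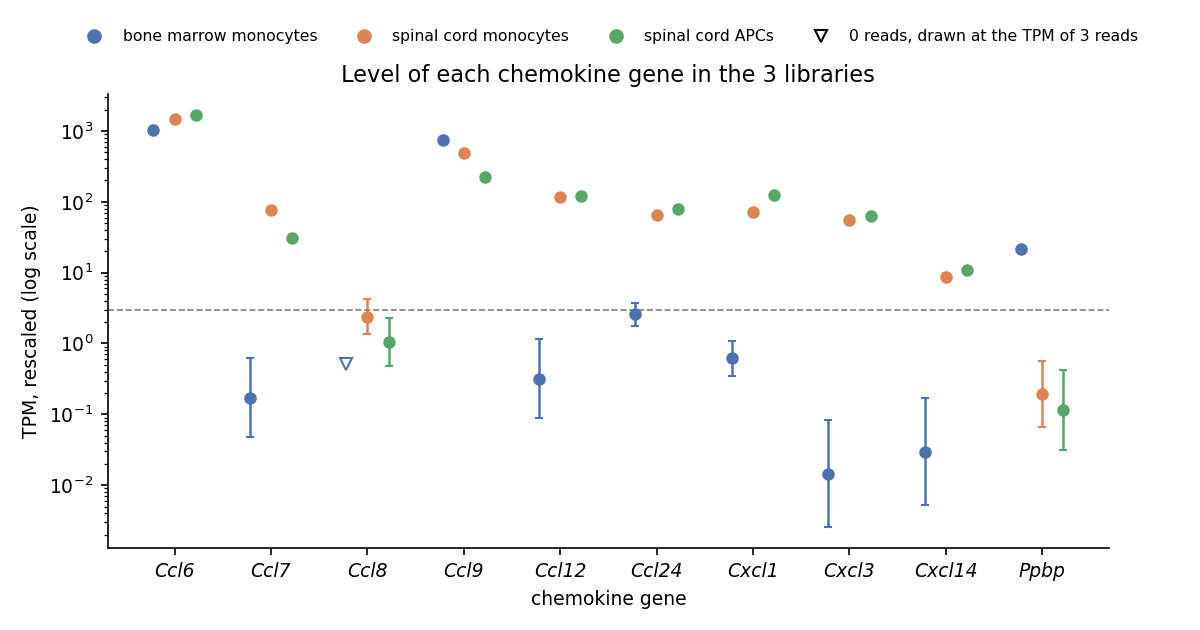
TPM (log scale) of the 10 chemokine genes in the 3 libraries, 1 point per library with its 95% Wilson interval; the dashed line marks 3 TPM and the open triangle a library with 0 reads, drawn at the TPM of 3 reads. Ccl6 and Ccl9 lie at or above 221 TPM in each library, whereas 6 genes lie below 3 TPM only in marrow monocytes and Ppbp lies above it only there.

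Between marrow and cord monocytes, 6 of the 10 genes were called higher, against a background of 13.6% of 10072 genes that passed the filter on low values. One, Ppbp, was called lower, against a background of 11.0%. In all, 9 genes passed the filter, but the 6 called higher passed it only through the spinal cord and Ppbp only through the bone marrow, so the counts describe these genes and carry no support of their own. The median log2FC of these 9 was 6.91, beside -0.17 for every gene that passed. The 10 chemokine genes that the study does discuss (Ccl2, Ccl3, Ccl4, Ccl5, Ccl17, Ccl22, Cxcl2, Cxcl9, Cxcl10 and Cxcl16) had 10 called higher in the same comparison, of which Ccl5, Ccl17, Ccl22 and Cxcl16 passed the filter only through the spinal cord.

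Between cord monocytes and APCs, 0 of the 10 genes were called higher, against a background of 1.94% of 9734 genes, and 1, Ccl7, was called lower, against 1.66%. With a plain 2-fold change in place of the interval, these counts were the same, while 331 of all genes were called higher and 293 lower. The count called lower was 2 from reads divided by effective length. It was 0 when a spread between libraries (coefficient of variation 0.2) was assumed. In this comparison 8 genes passed the filter. The median log2FC of these 8 was 0.11, beside -0.03 for every gene that passed. Of the 10 genes discussed by the study, 2 (Ccl17 and Ccl22) were called higher and 2 (Ccl2 and Cxcl10) lower. Both comparisons share the spinal cord monocyte library, so a counting error there moves their fold changes in opposite directions.

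**Figure D2:**
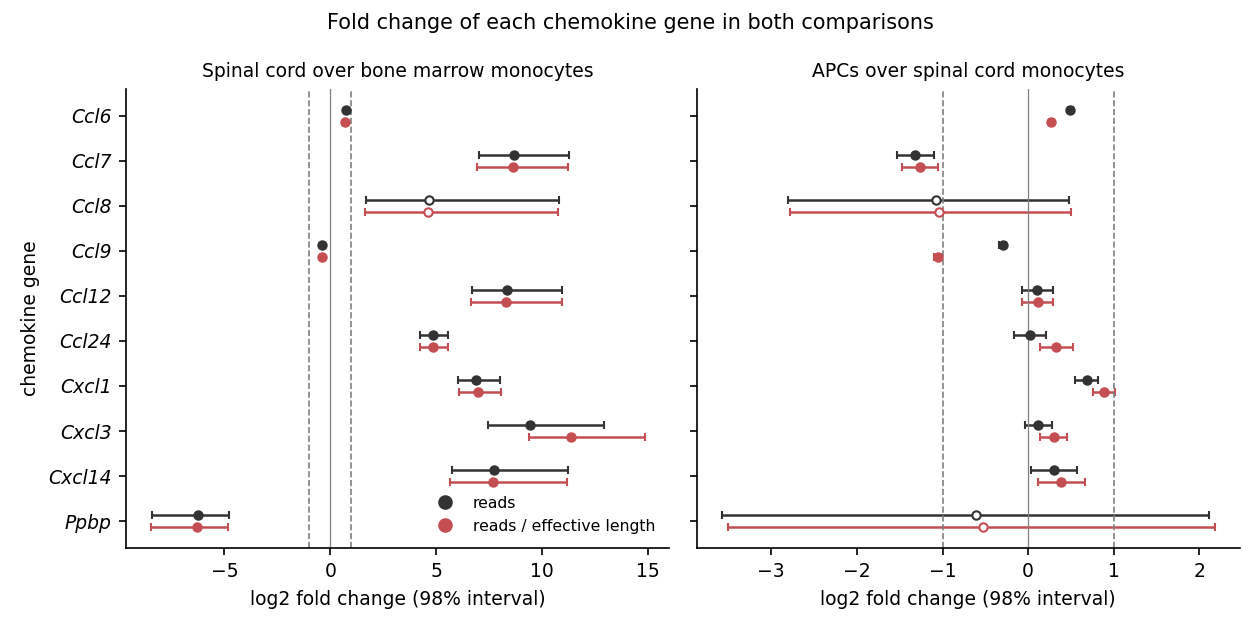
Log2FC values with 98% intervals of the 10 genes, from reads (black) and from reads divided by effective length (red), for spinal cord over marrow monocytes (left) and APCs over cord monocytes (right); dashed lines mark a 2-fold change and open points genes below 3 TPM in both libraries. In the left panel 7 genes lie beyond the right line, with Ccl8 as an open point among them, and in the right panel Ccl9 crosses the left line only once length is accounted for.

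Ccl6 and Ccl9 lie next to each other in the CC cluster on chromosome 11, both on the minus strand and 9245 bases apart. Ccl6 (ENSMUSG00000018927.3, GRCm38 chromosome 11, 83587882 to 83593087) encodes a CC chemokine of myeloid cells that acts on Ccr1. It had 21755 reads in marrow monocytes, 26505 in cord monocytes and 41284 in APCs, or 1035 TPM (95% interval 1021 to 1049), 1455 TPM (1438 to 1473) and 1664 TPM (1648 to 1680). The level was thus of the same order in each library, and the 3 intervals did not overlap. The log2FC was 0.74 (98% interval 0.71 to 0.78) from marrow to cord monocytes and 0.49 (0.47 to 0.52) from these to APCs, beyond counting error and below the 2-fold threshold in both.

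Ccl9 (ENSMUSG00000019122.8, GRCm38 chromosome 11, 83572919 to 83578636) encodes a related ligand of Ccr1. It had 25545, 14074 and 12705 reads in the same order, or 745 TPM (736 to 754), 485 TPM (477 to 493) and 221 TPM (217 to 225). The bone marrow library was therefore the highest and the APC library the lowest, with no overlap of the intervals. From reads, the log2FC was -0.40 (-0.44 to -0.37) in the first comparison and -0.30 (-0.34 to -0.25) in the second, and neither was called. Divided by effective length, the value of the second comparison was -1.06 (-1.10 to -1.01), which was called lower.

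The length that the quantification gave to Ccl9 differed between the libraries. Its effective length was 1606 bases in marrow monocytes, 1496 in cord monocytes and 2756 in APCs. GENCODE M21 lists a coding transcript of 3006 bases and a noncoding one of 398 bases, and the APC value lies 250 bases under the coding length. Ccl6, with a coding transcript of 1440 bases and 2 shorter retained-intron transcripts, had effective lengths of 984, 940 and 1190 bases, the last again 250 under the coding length. In APCs, every described gene with 1 coding transcript had an effective length 236 to 250 bases under its coding length, with or without noncoding transcripts. The APC library listed 22242 genes and the monocyte libraries 54432. The APC lengths thus followed the coding transcripts alone and could not show a change of the transcripts in the cells. The TPM of Ccl6 and Ccl9 in APCs is therefore on another length basis, and such a change was not tested.

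Together, Ccl6 and Ccl9 held most of the chemokine RNA in the bone marrow. Of the summed TPM of 37 chemokine genes, which was 2116 in marrow monocytes, 11642 in cord monocytes and 9472 in APCs, they held 84.1%, 16.7% and 19.9%. Among the chemokine genes Ccl6 was at rank 1 in marrow monocytes and at rank 2, behind Cxcl2, in both spinal cord populations. Ccl9 was at rank 2, 8 and 12. Among all 22238 genes, Ccl6 was at rank 158, 118 and 96 and Ccl9 at rank 202, 353 and 602. The ratio of Ccl6 to Ccl9 in TPM was 1.39, 2.998 and 7.52, of which the last rests on the changed effective length.

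**Figure D3:**
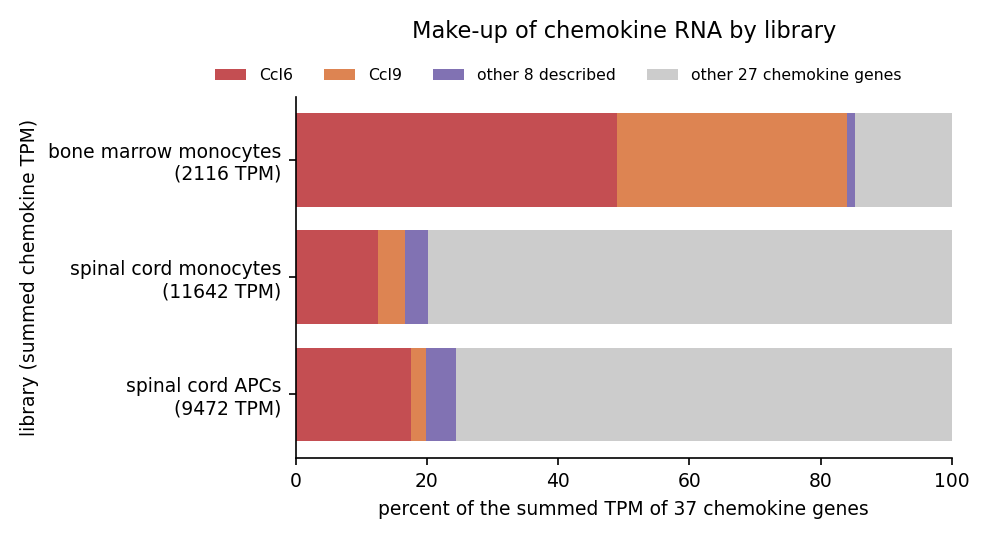
Share (percent) of the summed TPM of 37 chemokine genes taken by Ccl6, Ccl9, the other 8 described genes and the remaining 27 genes, 1 bar per library with its summed TPM. Ccl6 and Ccl9 take 84.1% in marrow monocytes and 16.7% in cord monocytes, where the summed TPM was 11642 in place of 2116.

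The monocyte chemoattractant genes Ccl7, Ccl12 and Ccl8 lie with Ccl2 on the plus strand of chromosome 11. Ccl7 (ENSMUSG00000035373.2, GRCm38 82045712 to 82047525) encodes a ligand of Ccr2 that also acts on Ccr1 and Ccr3. It had 2 reads in marrow monocytes, 790 in cord monocytes and 351 in APCs, or 0.172 TPM (0.0472 to 0.627), 77.3 TPM (72.1 to 82.8) and 30.5 TPM (27.5 to 33.8). The bone marrow value was below the floor of 3 reads, and cord monocytes were the highest. The log2FC was 8.67 (98% interval 7.01 to 11.29) in the first comparison, called higher, and -1.32 (-1.53 to -1.10) in the second, called lower. The second call was lost when a spread between libraries (coefficient of variation 0.2) was assumed.

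Ccl12 (ENSMUSG00000035352.3, GRCm38 82101845 to 82103400) encodes another ligand of Ccr2. It had 2, 630 and 752 reads, or 0.320 TPM (0.0877 to 1.17), 118 TPM (109 to 128) and 121 TPM (112 to 130). The spinal cord libraries overlapped each other and lay far above the bone marrow. Its log2FC was 8.34 (6.68 to 10.96), called higher, and then 0.11 (-0.07 to 0.29), which included 0. The ratio of Ccl7 to Ccl12 in TPM was 0.655 in cord monocytes and 0.252 in APCs.

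Ccl8 (ENSMUSG00000009185.2, GRCm38 82115185 to 82116799), whose product acts on Ccr8 in the mouse, had 0, 12 and 6 reads. This came to 2.40 TPM (1.37 to 4.19) in cord monocytes and 1.05 TPM (0.479 to 2.28) in APCs, and the floor of 3 reads that 0 reads in the bone marrow allow came to 0.521 TPM. The interval of cord monocytes lay above this floor. Ccl8 did not pass the filter on low values in either comparison, and the APC value overlapped that of cord monocytes.

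The neighbours in this cluster did not share one pattern. Ccl2, 8258 bases from Ccl7 and the best known of the group, stood at 97.9, 1059 and 290.5 TPM, so it was already present in the bone marrow, where Ccl7 and Ccl12 were near 0. In the second comparison Ccl2 was called lower with a log2FC of -1.87 (-1.93 to -1.80), as Ccl7 was, whereas the interval of Ccl12 included 0. Ccl11, which lies between Ccl7 and Ccl12 and encodes eotaxin, had 1, 2 and 4 reads. In the neighbouring cluster of Ccl9 and Ccl6, Ccl5 had 3, 3631 and 3857 reads, whereas both of those genes were at 221 TPM or more in each library. No 50-base stretch of the annotated transcripts of Ccl6, Ccl7, Ccl8, Ccl12, Ccl24, Cxcl1, Cxcl14 or Ppbp occurs in another gene, and of the 2996 stretches of Ccl9 1.97% do.

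**Figure D4:**
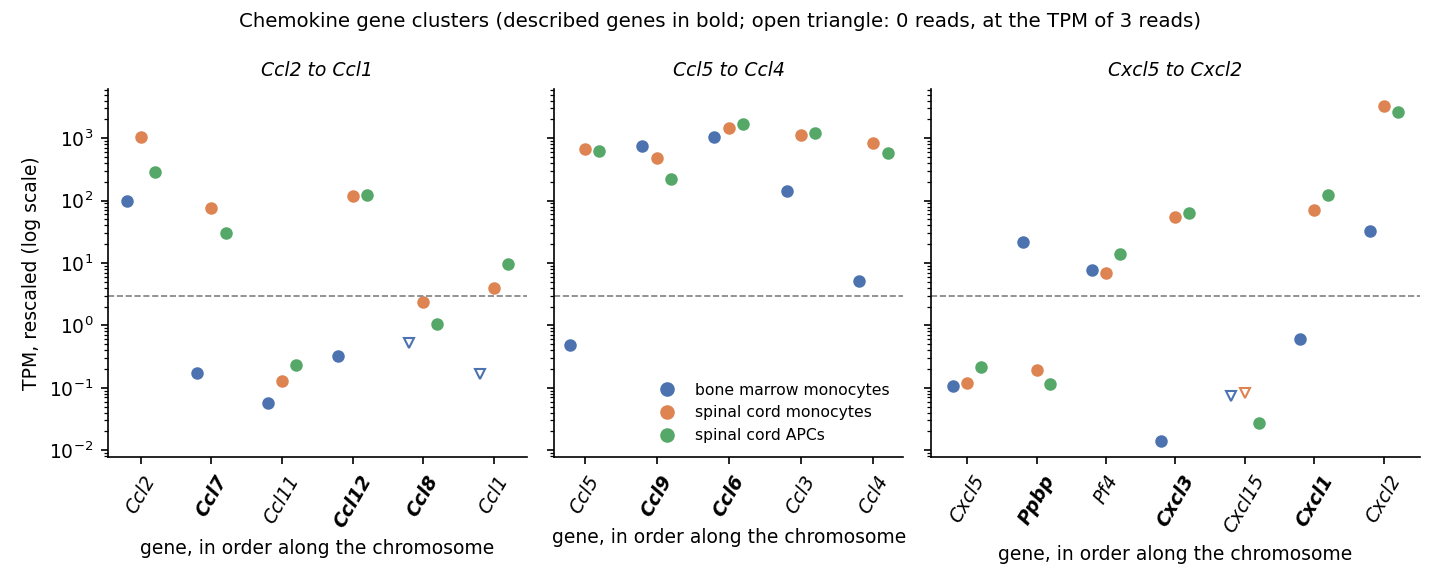
TPM (log scale) of the chemokine genes of 3 clusters in their order along the chromosome, 1 point per library, with the described genes in bold, the dashed line at 3 TPM and open triangles for 0 reads. Neighbours differ: Ccl11 and Ccl8 stay below 3 TPM between or beside genes above it, and Ppbp and Cxcl3 on either side of Pf4 have opposite orders.

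Ccl24 (ENSMUSG00000004814.10, GRCm38 chromosome 5, 135569937 to 135573049, minus strand) encodes eotaxin-2, a ligand of Ccr3 that attracts eosinophils, and lies outside these clusters. It had 27, 578 and 650 reads, or 2.59 TPM (1.78 to 3.76), 65.9 TPM (60.8 to 71.5) and 78.4 TPM (72.5 to 84.6). The bone marrow value was low but above the floor, and the intervals of the spinal cord libraries lay close to each other, with APCs the higher. For Ccl24 the log2FC was 4.85 (4.23 to 5.55), called higher, and then 0.02 (-0.17 to 0.21) from reads or 0.33 (0.14 to 0.52) from reads divided by effective length. The 8 markers of eosinophils and mast cells summed to 1.56, 4.14 and 9.99 TPM, with Siglecf the most abundant in each at 0.768, 3.16 and 7.83 TPM, and Mcpt4 was at 0 reads in each, Fcer1a in both spinal cord libraries and Epx in cord monocytes. Their part in the level of Ccl24 was not tested.

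Cxcl1 and Cxcl3 lie with Cxcl2 on the plus strand of chromosome 5. Their products draw neutrophils by way of Cxcr2. The RefSeq promoters are shown because the 3 genes were called higher together in cord monocytes and because Ppbp, which lies in the same cluster, was called lower. The sequences run from 120 to 31 bases before the RefSeq start on GRCm38.p6, 5′ to 3′, and capitals mark matches to GGGANNTTC, the core of the NF-kappa B motif, on either strand. The windows are chr5:90891125-90891214 for Cxcl1, chr5:90903779-90903868 for Cxcl2, chr5:90785981-90786070 for Cxcl3 and chr5:90768398-90768487 for Ppbp, each on the plus strand.
Cxcl1: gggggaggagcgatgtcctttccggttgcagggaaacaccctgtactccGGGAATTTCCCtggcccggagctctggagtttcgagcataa
Cxcl2: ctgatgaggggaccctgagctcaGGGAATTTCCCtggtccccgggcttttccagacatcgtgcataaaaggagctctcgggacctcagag
Cxcl3: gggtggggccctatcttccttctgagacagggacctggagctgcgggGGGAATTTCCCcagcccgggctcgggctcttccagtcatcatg
Ppbp: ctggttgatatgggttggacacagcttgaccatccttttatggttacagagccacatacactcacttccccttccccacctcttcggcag

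The same 11 letters stood in Cxcl1, Cxcl2 and Cxcl3, formed by 2 overlapping matches on opposite strands. They began 71 bases before the start of Cxcl1, 97 before that of Cxcl2 and 73 before that of Cxcl3. Over windows of 300 bases (250 before and 50 after the start), GGGANNTTC occurred on either strand in 3.94% of 32851 promoters. It occurred in 2 of the 8 described genes with a RefSeq promoter, Cxcl1 and Cxcl3, and not in Ccl6, Ccl8, Ccl9, Ccl12, Cxcl14 or Ppbp. GAAANNGAA, the core of the interferon-stimulated response element, occurred in 8.56% of promoters and among these 8 genes in Cxcl14. Ccl7 and Ccl24 were not in the table. A match describes letters in a window and is not a measured binding site.

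Cxcl1 (ENSMUSG00000029380.11, GRCm38 chromosome 5, 90891241 to 90893115) had 11, 1021 and 1816 reads in marrow monocytes, cord monocytes and APCs. These gave 0.615 TPM (0.343 to 1.10), 70.8 TPM (66.5 to 75.2) and 124 TPM (118 to 130). The TPM was lowest in the bone marrow and highest in APCs, with no overlap. The effective length of Cxcl1 was 837, 745 and 704 bases in the same order. GENCODE M21 lists a coding transcript of 953 bases and a retained-intron one of 1871 bases. The APC length lies 249 bases under the coding one, so the limit on the TPM of Ccl6 and Ccl9 in APCs holds here too. For Cxcl1 the log2FC was 6.91 (6.02 to 8.02), called higher, and then 0.68 (0.55 to 0.81), or 0.89 (0.76 to 1.02) from reads divided by effective length, not called on either scale. Cxcl1 was the only one of the 3 neighbours whose interval in the second comparison lay above 0 from reads, since that of Cxcl2 was -0.30 to -0.26 and that of Cxcl3 included 0.

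Cxcl3 (ENSMUSG00000029379.10, GRCm38 chromosome 5, 90786103 to 90789600) had 1, 844 and 1015 reads, or 0.0142 TPM (0.00255 to 0.0819), 54.6 TPM (51.0 to 58.4) and 63.5 TPM (59.7 to 67.6). The single bone marrow read was below the floor, and the TPM intervals of the spinal cord libraries lay close to each other, with APCs the higher. From reads, Cxcl3 had a log2FC of 9.43 (7.45 to 12.93), called higher, and then 0.12 (-0.04 to 0.28), which included 0. The effective length in the bone marrow was 3240 bases against 798 and 766 in the spinal cord libraries, and GENCODE M21 lists a retained-intron transcript of 3498 bases and a coding one of 1016 bases. The APC length lies 250 bases under the coding one, so the limit on the TPM of Ccl6 and Ccl9 in APCs holds here too. Divided by effective length, the log2FC values were 11.36 (9.37 to 14.86) and 0.30 (0.14 to 0.45).

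Reads of Cxcl3 may be shared with Cxcl2. Of 967 stretches of 50 bases in the coding transcript of Cxcl3, 61 (6.31%) also occur in Cxcl2, which had 735, 54727 and 49877 reads. The ratio of Cxcl3 to Cxcl2 in TPM was 0.000430, 0.0165 and 0.0238, and that of Cxcl1 to Cxcl2, which share no such stretch, was 0.0186, 0.0213 and 0.0465. The level of Cxcl3 is therefore uncertain to the extent that reads were divided between the paralogs.

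Cxcl14 (ENSMUSG00000021508.11, GRCm38 chromosome 13, 56288643 to 56296551, minus strand) encodes a CXC chemokine made mainly by epithelial and stromal cells. In both spinal cord libraries Cxcl14 was the least abundant of the 6 genes called higher. It had 1, 262 and 358 reads, or 0.0298 TPM (0.00527 to 0.169), 8.78 TPM (7.78 to 9.91) and 10.9 TPM (9.82 to 12.1). The spinal cord intervals overlapped narrowly, and the bone marrow read was below the floor. Its log2FC was 7.75 (5.75 to 11.25), called higher, and then 0.30 (0.03 to 0.58). Astrocyte, endothelial and fibroblast markers also had a higher summed level in cord than in marrow monocytes, whereas that of the oligodendrocyte markers given above was lower. The summed TPM of 6 astrocyte markers was 4.17, 18.5 and 19.6, with Gfap the most abundant in both monocyte libraries and Slc1a2 and Aqp4 at 0 reads in the bone marrow. That of 5 endothelial markers was 17.2, 73.5 and 45.0, led by Flt1 in the spinal cord, with Cldn5 at 0 reads in the bone marrow. The 6 fibroblast markers summed to 0.0365, 4.74 and 2.92, none above 3 TPM in any library, and Col1a2, Col3a1 and Lum were at 0 reads in the bone marrow. The part of these cells and of microglia in the levels of Cxcl14 and of the other genes called higher was not tested.

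Ppbp (ENSMUSG00000029372.7, GRCm38 chromosome 5, 90768518 to 90770063, plus strand) encodes pro-platelet basic protein, which megakaryocytes make and platelets store in their granules and whose cleaved form acts on Cxcr2. It had 380 reads in marrow monocytes, 3 in cord monocytes and 2 in APCs, or 21.6 TPM (19.5 to 23.8), 0.192 TPM (0.0653 to 0.564) and 0.115 TPM (0.0316 to 0.420). Both spinal cord values were at or below the floor of 3 reads, and the bone marrow interval lay far above them. From marrow to cord monocytes the log2FC was -6.24 (-8.40 to -4.77), called lower. A difference between the spinal cord libraries was not detectable at this depth.

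Of 10 markers of platelets and megakaryocytes, 8 had the most reads in marrow monocytes, as Ppbp did, but not Pf4 and Clec1b, the most abundant ones in the spinal cord. Tubb1, the tubulin of platelets, had 122, 1 and 8 reads and was called lower in cord monocytes, with a log2FC of -5.73 (-9.24 to -3.72). Itga2b, the integrin CD41, had 160, 12 and 25 reads. The platelet glycoprotein genes Gp1ba and Gp1bb had 55 and 6 reads in the bone marrow and 0 in both spinal cord libraries. In contrast, Clec1b had 31, 92 and 214 reads and was called higher in cord monocytes, and Pf4, which lies 2371 bases from Ppbp and is stored in the same granules, had 56, 42 and 102 reads with a log2FC of 0.05 (-0.64 to 0.73).

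Over the whole list, 3 of the 10 markers passed the filter on low values in the first comparison, with 1 called higher and 1 lower, beside 13.6% and 11.0% of all genes that passed. Both passed it only through the library where they were higher, Clec1b through cord and Tubb1 through marrow monocytes. The summed level of the list was 23.6, 14.9 and 40.7 TPM, led by Pf4 in both monocyte libraries and by Clec1b in APCs, so it did not follow Ppbp. The ratio of Ppbp to Pf4 in TPM was 2.79, 0.0281 and 0.00814. The part of platelets or megakaryocytes in the level of Ppbp was not tested. Ctsg, the gene of cathepsin G, which cleaves the Ppbp product to its active form, had 929, 7 and 8 reads and was called lower as well, with a log2FC of -6.46 (-7.87 to -5.39). It is also one of the 13 neutrophil and granulocyte precursor markers. In this comparison 10 of them were called lower and 2, Retnlg and Cxcr2, higher, beside 11.0% and 13.6% of all genes that passed. Among those called, Ctsg and Mpo passed the filter only through the bone marrow, and Retnlg and Cxcr2 only through the spinal cord. The part of neutrophils and granulocyte precursors in these values was not tested.

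**Figure D5:**
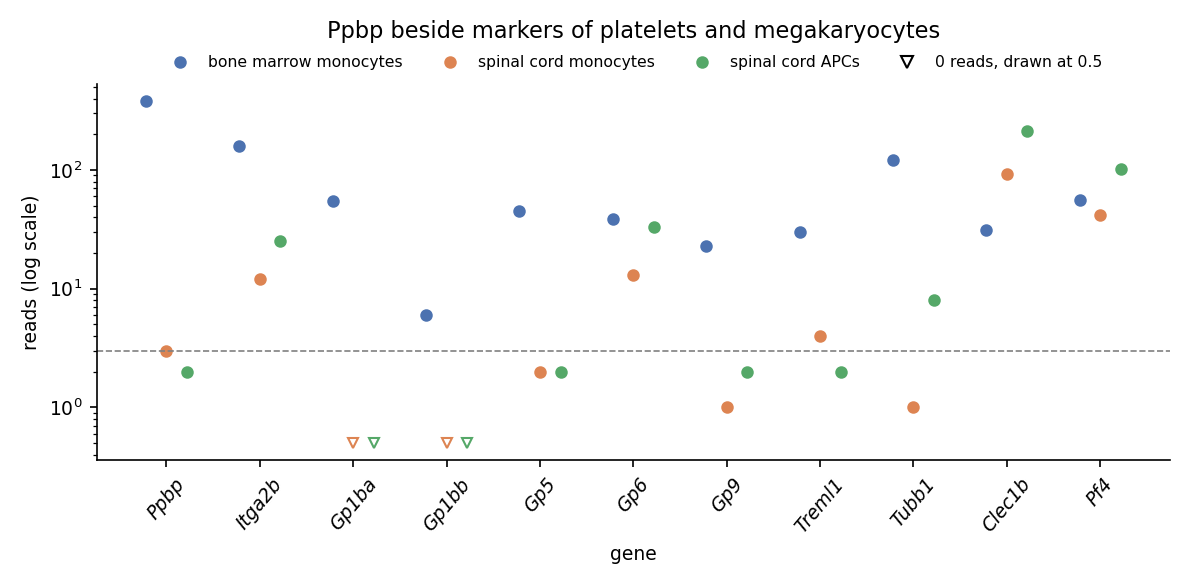
Reads (log scale) of Ppbp and 10 markers of platelets and megakaryocytes, 1 point per library, with the dashed line at the floor of 3 reads and open triangles for 0 reads. Ppbp, Tubb1, Itga2b and Gp1ba were highest in marrow monocytes, whereas Clec1b and Pf4 were highest in APCs.

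The receptors for these chemokines changed in both directions between marrow and cord monocytes. Of 6 receptor genes, 3 passed the filter, with 2 called higher and 1 lower, beside 13.6% and 11.0% of all genes that passed. One of those called higher, Cxcr2, passed only through the spinal cord. Ccr2, the receptor for the Ccl7 and Ccl12 products, was the one called lower, at 1629, 299 and 139 TPM, and also the one called lower in APCs, where the log2FC of -1.13 (-1.17 to -1.09) became -1.03 (-1.07 to -0.99) and was no longer called once divided by effective length. Ccr1, the receptor for the Ccl6 and Ccl9 products, stood at 152, 295 and 147 TPM, with a log2FC of 1.27 (1.22 to 1.32), called higher, and then -1.03 (-1.08 to -0.98), just short of a call.

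Receptors of the other ligands were rare. Cxcr2, the receptor for the Cxcl1, Cxcl3 and Ppbp products, stood at 2.56, 9.10 and 6.75 TPM and was called higher in cord monocytes, with 2.13 (1.82 to 2.44). Cxcr1 had 0, 4 and 5 reads. Ccr3, the receptor for the Ccl24 product, had 0, 8 and 22 reads. Ccr8, the receptor for the Ccl8 product, had 1, 37 and 74 reads and reached 3.84 TPM in APCs.

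Of 5 atypical receptors, which bind ligands without the usual G protein signal, 2 passed the filter in the first comparison, and both were called higher, beside 13.6% of all genes that passed, but Ackr1 passed only through the spinal cord. Ccrl2 rose from 9.82 TPM in marrow monocytes to 1091 TPM in cord monocytes, with a log2FC of 7.04 (6.86 to 7.23), and had 926 TPM in APCs. Ackr1, which binds many inflammatory CC and CXC chemokines, had 0, 310 and 214 reads, with 18.4 TPM in cord monocytes against a floor of 0.235 TPM in the bone marrow. Ackr2 had 0 reads in each library. In the second comparison 2 passed the filter and 0 were called, beside 1.94% called higher and 1.66% lower of all genes that passed.

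Of 7 proteases known to cleave chemokines, 4 were called higher and 2 lower between the monocyte populations, and 2 higher between cord monocytes and APCs. Of all genes that passed the filter, 13.6%, 11.0% and 1.94% were called in these directions. The 4 called higher in the first comparison (Mmp2, Mmp9, Mmp12 and Mmp14) passed only through the spinal cord. Of the 2 called lower there, Ctsg passed only through the bone marrow. Of the 2 called higher in the second comparison, Dpp4 passed only through APCs. Mmp12, the macrophage metalloelastase, stood at 1.23, 53.9 and 496 TPM and was called higher in both comparisons, with log2FC values of 4.50 (4.18 to 4.84) and 2.73 (2.65 to 2.82), or 5.66 (5.34 to 6.01) and 3.28 (3.20 to 3.36) from reads divided by effective length. Mmp14, a membrane-bound metalloproteinase, rose from 2.10 to 232 TPM in cord monocytes, with 7.51 (7.14 to 7.91). Mmp8, a collagenase of neutrophil granules, fell from 707 to 119 TPM, with -2.27 (-2.32 to -2.22). Dpp4, which trims the amino terminus of chemokines, stood at 4.11, 1.63 and 6.24 TPM and was called higher only in the second comparison, with 2.04 (1.74 to 2.35). The difference between the comparisons was not tested.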

How the data were processed

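RNA of 3 sorted cell pools was sequenced after poly(A) library preparation. The authors quantified the reads with Salmon 0.14.1 on GENCODE vM22 (mm10) and deposited, per gene, estimated counts of reads, TPM and effective length. The estimated counts as deposited are not normalized, and were rounded to whole reads here. The TPM values as deposited by the authors are normalized for effective length and depth. Effective lengths, also deposited, were used for an alternative only.

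The monocyte libraries list 54432 genes and the APC library 22242, so the transcript sets differed. The 22238 common genes held 84.9%, 85.3% and 99.99% of TPM, and TPM was rescaled over them. Paralogs may share reads.

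Fold changes follow the definition of GFold, computed anew: gamma posteriors of reads plus 1, median-of-ratios size factors of each pair, and percentiles 1 and 99. The code was tested on simulated data. With 1 library per group no test across conditions was possible. Wilson intervals (95%) and the floor of 3 reads leave out every error but that of counting. PCR duplicates count as separate reads, so even the counting error may be understated.

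The members and lists were chosen with earlier results of these data known. Every one of the 10 genes is named. Of the lists of chemokines, receptors and proteases any gene could be named, and of each marker list the most abundant gene and the defining markers at 0 reads. In addition, Tubb1, Itga2b, Retnlg and Mpo were named after their values were seen. Results of 13 alternatives are given at the end. A planned comparison of protein sequences was not run here. The lists leave out 2 genes, whose values are not reported here. Positions and transcripts came from GENCODE M21, which has 99.0% of the genes under the same identifier, and promoters from RefSeq (GRCm38.p6). TMM factors came from edgeR 4.0.16 in R 4.3.3, and everything else from Python 3.11.15 with scipy 1.17.1, pandas 2.3.3 and numpy 2.4.6, plotted by matplotlib 3.10.9.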

Additional observations from a re-analysis of the deposited data

How the results depend on the processing

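Of 260 fold changes of the 10 genes under 13 alternatives, 254 kept their direction and side of the threshold, and 0 reversed. The exceptions were Ccl7 in APCs, whose call was lost with an assumed coefficient of variation between libraries of 0.2 or 0.4, Ccl8 in spinal cord monocytes, called at 4.65 without the TPM filter, and Ccl9 in APCs, called lower at -1.06 by effective length and at -1.13 by TPM plus 1 or 0.1. In that comparison 2 of the 10 genes were then called lower by effective length and by both TPM scales, and 0 with either assumed spread. The median over those of the 10 genes that passed the filter was 4.22 with TPM plus 1 in the first comparison and 0.28 by effective length in the second. Other causes were not tested.

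Counts over all genes moved more. Between the monocyte populations, 896 were called higher with a coefficient of variation of 0.2, 619 with 0.4 and 2591 without the filter. Those called lower were 451, 218, 1890 with TPM plus 1 and 2137 with TPM plus 0.1. Between spinal cord monocytes and APCs, those called higher were 84, 42, 389 without the filter, 331 with a plain 2-fold change and 351 with TPM plus 0.1. Those called lower were 324 by effective length, 35 and 14 with the assumed spreads, 288 without the filter, 293 with a plain change, 528 with TPM plus 1 and 617 with TPM plus 0.1. Total reads shifted every log2 ratio by -0.16 in the first comparison and 0.04 in the second. No paired analysis was possible because each population had 1 library. Depth limits Ccl8 in each library, Ppbp in the spinal cord and 5 genes with at most 11 reads in the bone marrow.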

Other observations

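Among 17 further chemokine genes outside both sets, 9 had 0 reads in bone marrow monocytes. Cxcl11, which like Cxcl9 and Cxcl10 acts on Cxcr3, stood at 0.167, 19.1 and 6.34 TPM in the bone marrow, in monocytes of the spinal cord and in APCs, and was called higher and then lower, at 6.77 (98% interval 5.63 to 8.29) and -1.73 (-2.03 to -1.44) on the log2 scale. Ccl19, a ligand of Ccr7, had 0, 34 and 13 reads, with 3.84 TPM in spinal cord monocytes against 0.301 TPM for the floor of 3 reads in the bone marrow. Ccl1, a ligand of Ccr8, had 0, 20 and 57 reads. Cx3cl1, known from neurons, had 0, 27 and 179 reads and reached 2.99 TPM in APCs, below the filter. Cxcl17 had 0 reads in each library.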
